A study of Mus musculus with 6 samples.

Results

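The genes described here are 10 genes of branched-chain amino acid catabolism, the breakdown of leucine, isoleucine and valine: Bcat2, Bckdha, Bckdhb, Dbt, Ivd, Mccc1, Aldh6a1, Hibadh, Pcca and Pccb. They were taken by name, through every probe set that the array annotation gives to 1 of these symbols alone, which yielded 12 probe sets for the 10 genes, out of 22690 probe sets and 12393 genes on the array. RNA came from the white adipose tissue of mice 8 weeks old, on a background mixed from C57BL6 and 129, and each of 6 samples was hybridised to its own 1-colour Affymetrix array. All mice were kept at 4 °C for 4 days. The 3 control samples carried Yy1 alleles flanked by recombination sites (YY1flox/flox) without Cre, and the 3 YY1aKO samples carried the same alleles with Adiponectin Cre, a recombinase whose promoter works in adipocytes, which leaves Yy1 in the other cells of the tissue. Only the YY1aKO samples carry Cre, so loss of Yy1 and presence of Cre cannot be told apart. The labels disagree on the depot: the tissue field says visceral, the titles EWAT, and the descriptions subcutaneous, and the series title speaks of brown fat where the genotype gives an adipose-wide Cre. They do not say whether each sample came from a separate animal, so p-values reflect only how far these samples vary, which may be technical.

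Branched-chain amino acids are essential amino acids, and adipocytes break them down in mitochondria. BCAT2, the mitochondrial transaminase, removes the amino group, and the branched-chain ketoacid dehydrogenase, a complex built from the E1 subunits BCKDHA and BCKDHB, the E2 core DBT and the E3 subunit DLD, then commits the carbon skeletons to oxidation. The products follow separate routes, leucine to acetyl-CoA and ketone bodies, valine and part of isoleucine to propionyl-CoA and from there to the tricarboxylic acid cycle, and the carbon also feeds fat synthesis in adipocytes. YY1, the factor removed here, binds DNA through zinc fingers and can raise or lower transcription of its targets.

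The targeted gene checked the labels: Yy1 read 1785, 1846 and 1596 in controls 1 to 3, against 373, 323 and 315 in YY1aKO 1 to 3. Its log2 difference was -2.37 ± 0.11 (SE, n = 3 per group), with an adjusted p of 0.0021 (limma, Benjamini-Hochberg over all genes tested, as throughout). Array medians were alike, at 134 to 140, but the normalization used (RMA) gives arrays the same distribution, so this is no check of them. Control 2 stood apart: over the genes tested, which are no independent replicates, its Pearson correlation with another array was 0.812 to 0.890, where controls 1 and 3 had 0.977 and the YY1aKO arrays 0.988 to 0.990. Its summed intensity over the 7 measured of 14 epididymis markers was 97535, against 197 and 922 in controls 1 and 3 and 204 to 221 in YY1aKO. Values are therefore given with all 6 arrays and again without control 2, which leaves 2 control and 3 YY1aKO arrays. All values are array intensities on the linear scale or log2 differences, YY1aKO minus control, and the number of arrays limits their precision.

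The mean signal of 9 of the 10 genes was lower in YY1aKO fat, from the first transamination to the carboxylation of propionyl-CoA, and that of Bckdhb, a subunit of the dehydrogenase complex, was higher. Of the 9 genes tested, 4 fell with all 6 arrays, Dbt, Ivd, Aldh6a1 and Pccb, none rose, and 5 did not pass. Over all 7436 genes tested, 7.8% were called lower and 12.9% higher, 20.7% in all. At an unadjusted p of 0.05, 7 of the 9 were lower and 1 higher, where 37.3% of all genes passed. Without control 2, 8 of the 9 fell and Bckdhb rose, where 19.6% of all genes were called lower and 25.5% higher, 45.1% in all. The median log2 difference of the 9 genes was -0.87, or -1.22 without control 2, beside 0.06 and 0.03 over all genes tested. Bcat2 lay below the intensity filter, a mean intensity of 114, and its values come from the fit with no filter. The other 9 genes read above that level on every array, the lowest reading being 341 for Pccb in YY1aKO 1.

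The calls with all arrays were close to the threshold. They did not hold when control 3 or any single YY1aKO array was left out: Pccb then had an adjusted p of 0.068 to 0.084, and Dbt, Ivd and Aldh6a1 had 0.107 to 0.159. Without control 1, Pccb kept its call (adjusted p = 0.036), the other 3 lost theirs, and Bckdhb passed (adjusted p = 0.042).

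Control 2 was the lowest control for all 10 genes and control 1 the highest. It read 1.41-fold to 2.19-fold below the geometric mean of controls 1 and 3. For 3 genes, Bcat2, Bckdha and Pcca, this brought control 2 into or below the YY1aKO range. For the other 7 the groups did not overlap, 6 lower and 1 higher in YY1aKO, where 19.6% of all genes tested lay fully lower and 27.9% fully higher, 47.5% in all. Without control 2 the groups did not overlap for any of the 10, beside 31.4% of all genes fully lower and 37.8% fully higher, 69.2% in all.

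**Figure D1:**
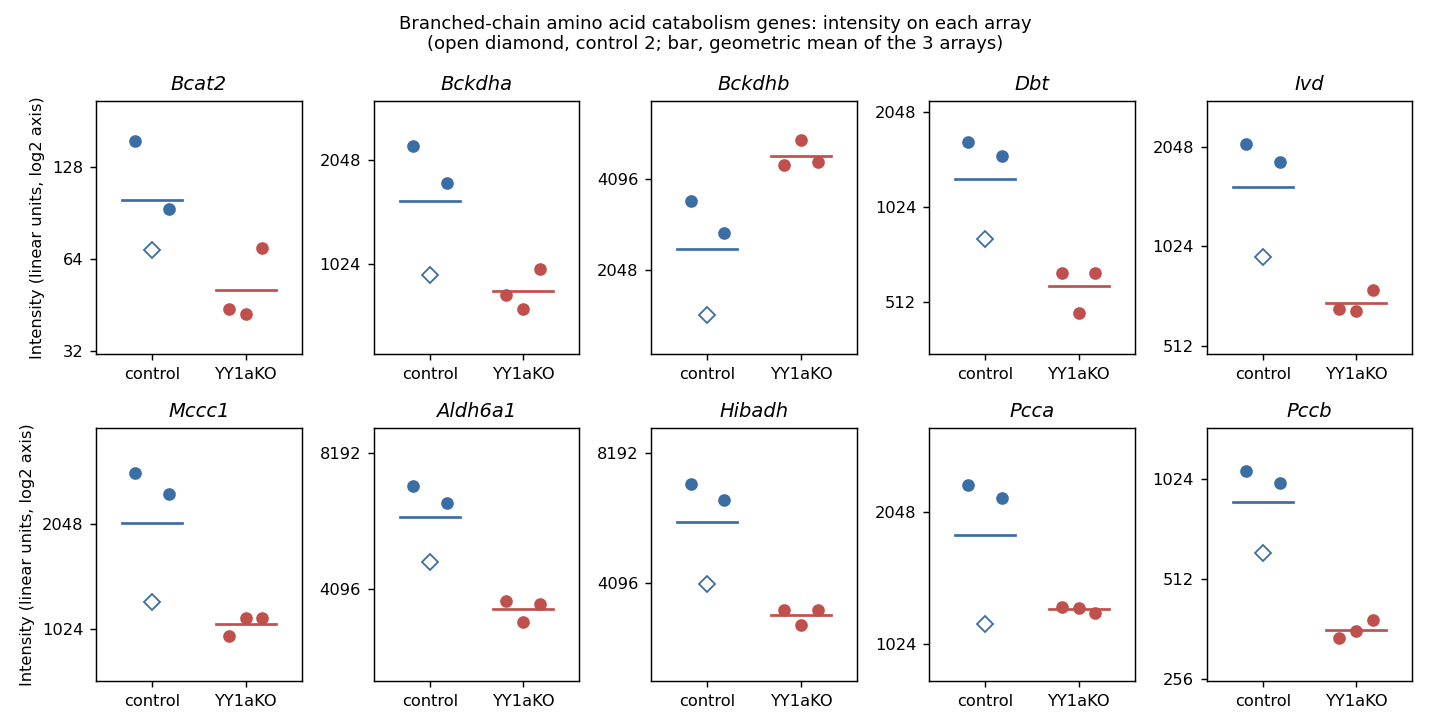
Intensity of each gene on each array, on log2 axes that differ between panels; points are arrays, open diamonds control 2, and bars geometric means of the 3 arrays of a group. Control 2 is the lowest control in every panel, and Bckdhb is the panel in which the YY1aKO arrays lie above all controls.

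The first step was measured at low intensity. Bcat2, the mitochondrial transaminase, read 156, 68.5 and 93.0 in controls 1 to 3, against 43.7, 42.2 and 69.6 in YY1aKO 1 to 3. YY1aKO 3 lay just above control 2, and the other YY1aKO arrays lay below all controls. The log2 difference was -0.98 ± 0.35 (adjusted p = 0.138 with no filter), or -1.25 ± 0.30 without control 2 (adjusted p = 0.032), where 10.8% and 26.1% of all 12393 genes were called (11.5% lower without control 2). How much of such low readings is background is not known here. Bcat1, the cytosolic transaminase, also lay below the filter and read 90.6, 109 and 298 in controls, against 41.6, 38.2 and 27.1 in YY1aKO. Its difference was -2.03 ± 0.47, just short of the threshold (adjusted p = 0.0503 with no filter). Without control 2 it was -2.23 ± 0.50 and passed (adjusted p = 0.026 with no filter). The other Bcat1 probe set differed by -0.44 ± 0.25, or by -0.63 without control 2.

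The subunits of the branched-chain ketoacid dehydrogenase differed in direction. Bckdha, the E1 alpha subunit that carries the sites at which the complex is switched off by phosphorylation, read 2257, 952 and 1752 in controls, against 830, 754 and 989 in YY1aKO. The YY1aKO arrays lay around the reading of control 2 and below controls 1 and 3, with a log2 difference of -0.87 ± 0.33 (adjusted p = 0.113), or -1.22 ± 0.16 without control 2 (adjusted p = 0.0030). Dbt, the E2 core that passes the acyl group to coenzyme A, read 1650, 815 and 1488 in controls, against 634, 473 and 632 in YY1aKO. Its groups did not overlap, and it fell by 1.13 ± 0.30 on the log2 scale (adjusted p = 0.046), or by 1.45 ± 0.15 without control 2 (adjusted p = 0.0018), a level 2.73-fold lower. Bckdhb, the E1 beta subunit and partner of Bckdha, read 3460, 1456 and 2717 in controls, against 4549, 5493 and 4646 in YY1aKO. Every YY1aKO array lay above every control, with a log2 difference of 1.03 ± 0.32 (adjusted p = 0.074). Without control 2 the rise passed at 0.67 ± 0.14 (adjusted p = 0.013), a level 1.59-fold higher. Without both control 2 and control 3 it was 0.50 and did not pass (adjusted p = 0.053). Dld, the E3 subunit, which this complex shares with other mitochondrial dehydrogenases, read 2012, 993 and 1666 in controls, against 1759 to 1836 in YY1aKO. It differed by 0.27 ± 0.26 (adjusted p = 0.50), or by -0.027 without control 2, with a 95% interval of -0.28 to 0.23.

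Ratios of signals within an array, formed after the values had been seen, set these subunits against each other free of any factor that all genes of an array share. Such a ratio depends on the probes, so only its change between arrays can be read. The signal of Bckdhb over that of Bckdha was 1.53, 1.53 and 1.55 in controls 1 to 3, against 5.48, 7.28 and 4.70 in YY1aKO, a 3.72-fold change. Control 2 had nearly the same ratio as the other controls, and every YY1aKO ratio lay above every control ratio. Bckdhb over Dbt went from 2.10, 1.79 and 1.83 to 7.17, 11.6 and 7.35, a 4.47-fold change. Bckdha over Dbt overlapped, at 1.17 to 1.37 in controls, against 1.31 to 1.59 in YY1aKO. The exact two-sided permutation p was 0.1 for both Bckdhb ratios, the smallest that 3 against 3 arrays can give, and 0.129 when adjusted over the 9 ratios formed. For Bckdha over Dbt it was 0.2.

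**Figure D2:**
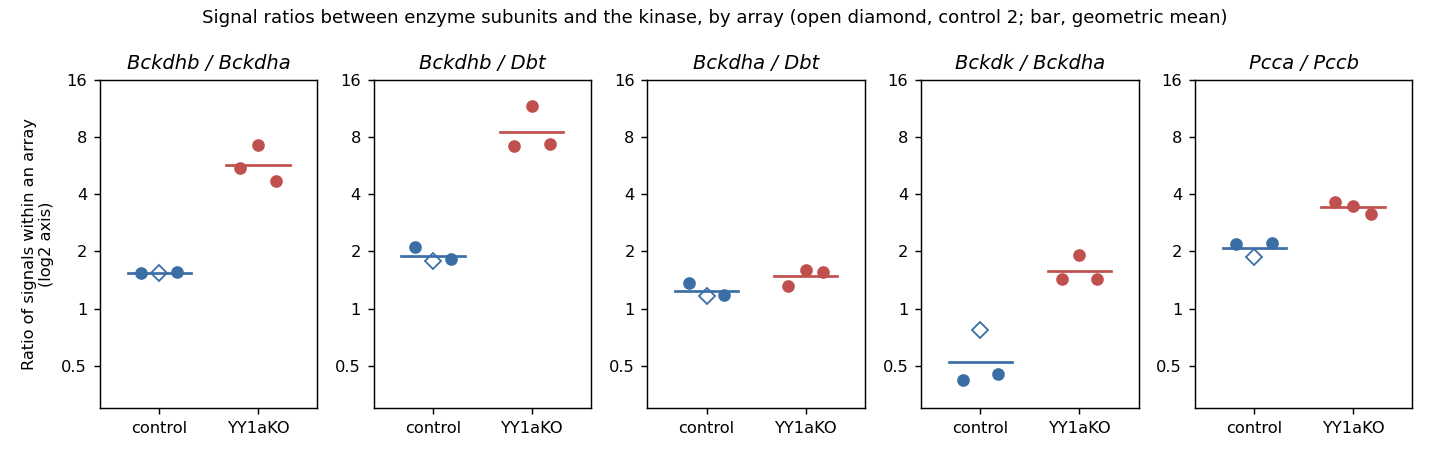
Ratio of 2 genes' signals within each array, on a shared log2 axis; points are arrays, open diamonds control 2, bars geometric means. Bckdhb over Bckdha lies at 1.53 to 1.55 in all 3 controls and at 4.70 to 7.28 in YY1aKO, while Bckdha over Dbt overlaps between the groups.

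The promoter windows of genes on either side of this split are shown because YY1 is the factor deleted here. RefSeq windows of 250 bases before to 50 after the start (GRCm38.p6) were at hand for 9 of the 10 genes, 13 windows in all, with Dbt the gene that was not matched. They were searched on both strands for AANATGGC, a core of the YY1 motif, in which N is any base. It was found in 2 of the 13 windows (15.4%), those of Bckdha and Pccb, and in no window of the other 7 genes matched, Bckdhb and 6 with a lower mean in YY1aKO, and 6.05% of all 32851 promoter windows hold it (8.93% of those of genes tested). Capitals mark the match, which starts 18 bases after the start site in Bckdha (chr7:25658712-25659011, minus strand) and 24 bases after it in Pccb (chr9:101034835-101035134, minus strand). In the first window of Bckdhb (chr9:83924887-83925186, plus strand) these letters do not occur. A match is a description of the sequence and not a site of binding.
Bckdha: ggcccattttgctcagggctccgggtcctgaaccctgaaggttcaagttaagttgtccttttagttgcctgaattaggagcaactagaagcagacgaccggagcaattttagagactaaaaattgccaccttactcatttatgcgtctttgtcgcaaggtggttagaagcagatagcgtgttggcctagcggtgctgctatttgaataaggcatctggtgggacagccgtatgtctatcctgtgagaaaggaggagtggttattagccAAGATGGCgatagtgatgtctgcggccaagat
Pccb: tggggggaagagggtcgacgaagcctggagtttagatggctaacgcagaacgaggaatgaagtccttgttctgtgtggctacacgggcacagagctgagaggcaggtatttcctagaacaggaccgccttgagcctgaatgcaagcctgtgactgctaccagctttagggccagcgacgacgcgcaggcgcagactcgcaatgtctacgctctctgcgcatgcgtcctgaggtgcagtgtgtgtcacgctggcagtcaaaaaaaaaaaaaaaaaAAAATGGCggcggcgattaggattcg
Bckdhb: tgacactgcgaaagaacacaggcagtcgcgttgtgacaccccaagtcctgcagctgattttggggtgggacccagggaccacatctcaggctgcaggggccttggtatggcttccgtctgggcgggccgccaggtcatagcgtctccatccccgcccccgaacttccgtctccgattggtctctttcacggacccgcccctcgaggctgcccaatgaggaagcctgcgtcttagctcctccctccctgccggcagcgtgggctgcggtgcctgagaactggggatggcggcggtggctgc

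In the leucine branch Ivd and Mccc1 were lower on every YY1aKO array than on any control. Auh, the hydratase that acts after them, overlapped at its brightest probe set. Ivd, isovaleryl-CoA dehydrogenase, which carries out the oxidation that follows the dehydrogenase complex, read 2091, 953 and 1848 in controls, against 662, 654 and 756 in YY1aKO. The groups did not overlap, and Ivd fell by 1.16 ± 0.30 (adjusted p = 0.046), or by 1.51 ± 0.11 without control 2 (adjusted p = 0.00073), 2.85-fold. Its second probe set read 1818, 708 and 1415 against 465, 426 and 475, with a log2 difference of -1.43 ± 0.34 (adjusted p = 0.036 over probe sets, of which 21.2% were called). Both probe sets of Ivd thus placed all YY1aKO arrays below all controls. Mccc1, the biotin-carrying subunit of methylcrotonyl-CoA carboxylase, read 2878, 1224 and 2501 in controls, against 980, 1098 and 1099 in YY1aKO. The YY1aKO arrays lay close below control 2 and far below the other controls, with a difference of -0.97 ± 0.33 (adjusted p = 0.087), or -1.34 ± 0.10 without control 2 (adjusted p = 0.00092). Mccc2, its partner subunit, lay below the filter, at 75.0 to 107 in controls, against 73.5 to 85.1 in YY1aKO, a difference of -0.21 ± 0.16 (adjusted p = 0.43 with no filter), or -0.36 without control 2 (adjusted p = 0.046 with no filter). Auh read 1162, 578 and 1036 in controls, against 919, 1030 and 898 in YY1aKO, and did not pass, at 0.10 ± 0.27 (adjusted p = 0.83), or -0.21 ± 0.10 without control 2 (adjusted p = 0.133). Its other probe sets lay below the filter and differed in direction. The brightest of them read 97.6 to 122 in controls, against 61.8 to 79.8 in YY1aKO (-0.68 ± 0.14, adjusted p = 0.035 over probe sets with no filter). The others differed by 0.06 ± 0.13 and 0.44 ± 0.14, the last higher on every YY1aKO array.

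In the valine branch Aldh6a1 and Hibadh were lower on every YY1aKO array than on any control. Of genes that act before them, Hibch and Acad8 overlapped, while Echs1 was also lower on every YY1aKO array. Aldh6a1, methylmalonate semialdehyde dehydrogenase, the last enzyme of the branch before propionyl-CoA, read 6920, 4704 and 6365 in controls, against 3837, 3451 and 3798 in YY1aKO. No arrays overlapped, and it fell by 0.68 ± 0.16 (adjusted p = 0.038), or by 0.85 ± 0.09 without control 2 (adjusted p = 0.0019). Hibadh, 3-hydroxyisobutyrate dehydrogenase, acts just before it on a valine intermediate that adipocytes and muscle can release, and read 6945, 4075 and 6366 in controls, against 3543, 3271 and 3537 in YY1aKO. Its groups did not overlap either, with -0.71 ± 0.21 (adjusted p = 0.065), or -0.95 ± 0.09 without control 2 (adjusted p = 0.0014). A second Hibadh probe set differed by -0.78 ± 0.23 (adjusted p = 0.059 over probe sets), or by -1.03 without control 2. Hibch, which makes the substrate of Hibadh, read 3579, 1448 and 3039 in controls, against 1400 to 1499 in YY1aKO, the range in which control 2 lay. It differed by -0.77 ± 0.34 (adjusted p = 0.156), or by -1.17 ± 0.10 without control 2 (adjusted p = 0.0012). Acad8, isobutyryl-CoA dehydrogenase, was highest in control 2, at 993 against 475 and 417 in controls 1 and 3 and 377 to 421 in YY1aKO. It did not pass, at -0.54 ± 0.33 (adjusted p = 0.288), or -0.15 ± 0.10 without control 2 (adjusted p = 0.239). Echs1, a hydratase, read 4536, 2398 and 3752 in controls, against 1561, 1761 and 2084 in YY1aKO. Its difference was -0.94 ± 0.26 (adjusted p = 0.051), or -1.21 ± 0.15 without control 2 (adjusted p = 0.0026).

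Propionyl-CoA carboxylase, where the valine and isoleucine routes meet, is built from an alpha and a beta subunit. Pccb, the beta subunit, read 1087, 614 and 1001 in controls, against 341, 356 and 384 in YY1aKO. All YY1aKO arrays lay well below control 2, with a fall of 1.28 ± 0.23 (adjusted p = 0.018), or of 1.53 ± 0.09 without control 2 (adjusted p = 0.00056), 2.90-fold. Pcca, the biotin-carrying alpha subunit, read 2362, 1140 and 2210 in controls, against 1247, 1239 and 1205 in YY1aKO. Control 2 lay below the YY1aKO arrays, and the difference of -0.56 ± 0.29 had an interval that includes 0 (-1.26 to 0.14, adjusted p = 0.212). Without control 2 Pcca fell by 0.89 ± 0.08 (adjusted p = 0.0012). The signal of Pcca over that of Pccb was 2.17, 1.86 and 2.21 in controls, against 3.66, 3.48 and 3.13 in YY1aKO, a 1.65-fold change with no overlap (exact permutation p = 0.1). Mmut, the mutase that passes the product to the tricarboxylic acid cycle, differed by -0.15 ± 0.24 (adjusted p = 0.69), or by -0.43 ± 0.09 without control 2 (adjusted p = 0.012).

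**Figure D3:**
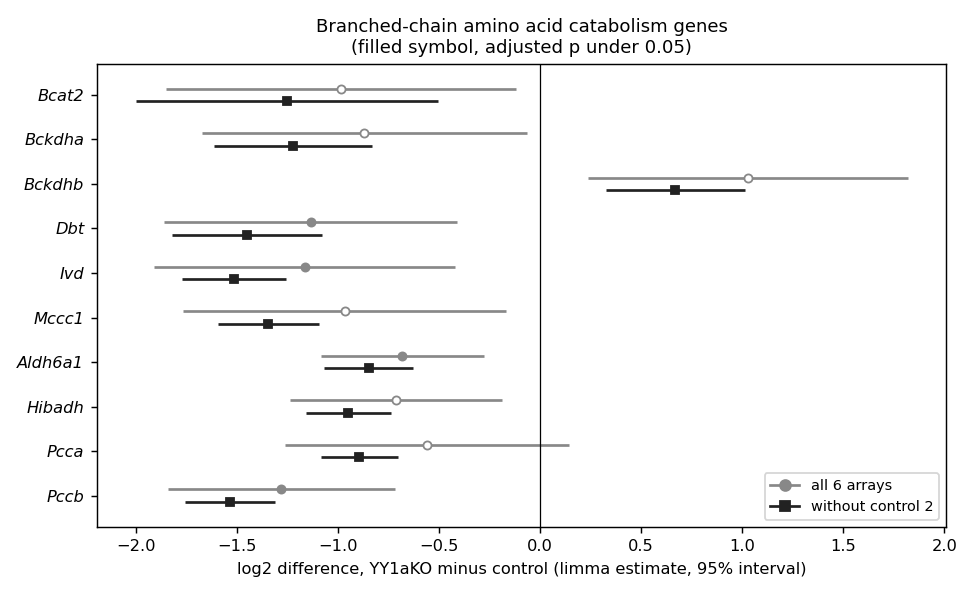
Log2 difference of each gene, YY1aKO minus control, with 95% intervals from limma, for all 6 arrays (grey circles) and without control 2 (black squares); filled symbols passed an adjusted p of 0.05, and Bcat2 is from the fit with no filter. Bckdhb is to the right of 0 and the other 9 genes to the left, and the intervals are shorter without control 2.

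Carriers and regulators of the pathway were also measured, from a list of 35 names of other genes of branched-chain amino acid handling (Mmut is listed under its older name too). Of these, 30 had a single-gene probe set and 27 were tested. With 6 arrays 4 were higher, 2 lower and 21 did not pass, 22.2% called beside 20.7% of all genes tested, with a median log2 difference of 0.08. Without control 2, 5 were higher and 10 lower, or 37.0% lower beside 19.6% of all genes tested, with a median of -0.12.

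The 4 higher genes were Slc25a44, Bckdk, Btd and Acaa2, where 12.9% of all genes tested were called higher. Slc25a44, the carrier that brings branched-chain amino acids into mitochondria, read 326, 265 and 276 in controls, against 593, 743 and 657 in YY1aKO. It rose by 1.20 ± 0.13 (adjusted p = 0.0077), 2.30-fold, and control 2 lay with the other controls. A second Slc25a44 probe set had 1.22 ± 0.16 and another, below the filter at 71.1 to 92.4, had 0.15 ± 0.12. Bckdk, the kinase that phosphorylates BCKDHA and so inactivates the dehydrogenase complex, read 946, 730 and 792 in controls, against 1187, 1435 and 1421 in YY1aKO, a rise of 0.71 ± 0.14 (adjusted p = 0.022). The signal of Bckdk over that of Bckdha was 0.419, 0.767 and 0.452 in controls, against 1.43, 1.90 and 1.44 in YY1aKO (3.00-fold, exact permutation p = 0.1). Over Bckdhb, the other E1 subunit, it was 0.273, 0.502 and 0.292 in controls, against 0.261, 0.261 and 0.306 in YY1aKO, which overlap (exact permutation p = 0.5). Ppm1k, the opposing phosphatase, was not analysed here. Btd, which recycles the biotin used by the carboxylases, rose by 0.74 ± 0.17 (adjusted p = 0.034), and Acaa2, a mitochondrial thiolase, by 0.68 ± 0.13 (adjusted p = 0.020).

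The 2 lower genes were Hsd17b10 and Oxct1, where 7.8% of all genes tested were called lower. Hsd17b10, which oxidises an isoleucine intermediate, read 2362, 1792 and 2292 in controls, against 542, 645 and 697 in YY1aKO, a fall of 1.77 ± 0.16 (adjusted p = 0.0064), 3.41-fold. Its second probe set had -1.53 ± 0.22. Oxct1, which activates ketone bodies for oxidation, fell by 1.10 ± 0.18 (adjusted p = 0.015). Acadsb, the isoleucine dehydrogenase that is the counterpart of Ivd, read 2138, 1118 and 1743 in controls, against 961, 849 and 793 in YY1aKO. It lay below every control with -0.90 ± 0.25 (adjusted p = 0.054), or -1.16 ± 0.13 without control 2 (adjusted p = 0.0018). Klf15, a transcription factor known to drive genes of this pathway, read 973, 546 and 962 in controls, against 471, 374 and 523 in YY1aKO. Its difference was -0.82 ± 0.27 (adjusted p = 0.079), or -1.10 ± 0.15 without control 2 (adjusted p = 0.0034). Slc7a5, a plasma-membrane carrier named after its values were seen, read 4234 in control 2, 96.7 and 163 in controls 1 and 3, and 250 to 404 in YY1aKO, so its difference changed from -0.27 to 1.43 (adjusted p = 0.012) without control 2.

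**Figure D4:**
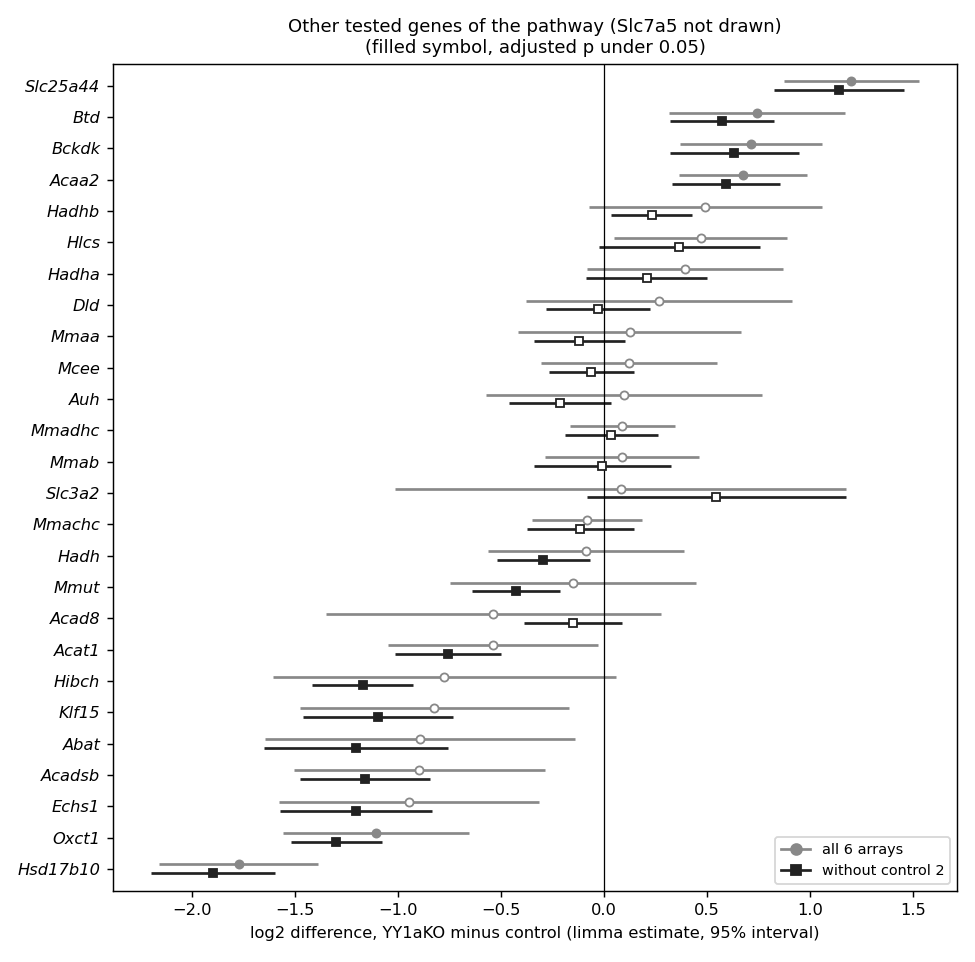
Log2 difference, YY1aKO minus control, with 95% limma intervals, for 26 of the 27 tested other genes of the pathway, with all 6 arrays (grey circles) and without control 2 (black squares); filled symbols passed an adjusted p of 0.05. Slc25a44 and Hsd17b10 lie at the ends, at 1.20 and -1.77 with 6 arrays, and Slc7a5 is left out because its interval is too wide for the axis.

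In tissue RNA, fewer adipocytes and less RNA per adipocyte cannot be told apart, so the markers of the tissue were set beside the genes. White adipocyte markers were present: Adipoq, which encodes adiponectin, read 18586 to 24774 in controls, against 19768 to 21714 in YY1aKO. Of 10 tested white adipocyte markers none passed with 6 arrays by limma (1 was lower at an unadjusted p of 0.05), and 1, Retn, was lower without control 2. With 6 arrays Fabp4, Pparg and Lipe were higher on every YY1aKO array than on any control, and Retn was lower. These are 4 of 10 with no overlap, beside 47.5% of all genes tested. The summed intensity of the 10 markers was 93908 in control 2, 142694 and 151621 in the other controls and 127198 to 132476 in YY1aKO. Their mean log2 intensity in control 2 was 0.94 below that of controls 1 and 3. The YY1aKO mean was 0.20 below that of controls 1 and 3, and 0.11 above that of all 3 controls. Retn weighed most in the first of these: without control 2 it differed by -1.67. The other markers then differed by -0.34 (Lep) to 0.39 (Lipe). The 9 tested genes of the pathway lay below controls 1 and 3 in control 2 by a median of 1.00. Low readings in control 2 were not confined to adipocyte markers. The median log2 gap to controls 1 and 3 was -0.94 for tested macrophage, -1.52 for endothelial and -1.39 for mesothelial markers. For progenitor and fibroblast markers it was -0.61, for smooth muscle markers 0.06, and over all genes tested -0.05. What these gaps reflect was not tested.

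Scaling each array by its own mean log2 intensity of the 10 white adipocyte markers, an alternative chosen after the data were seen, brought control 2 near the other controls for these genes. It then lay within 0.2 log2 units of their mean for 8 of the 10 genes, and at most 0.44 from it, for Aldh6a1. For other genes of the pathway the scaling moved control 2 away from the other controls, from -0.18 to 0.76 for Slc25a44, from -0.24 to 0.70 for Bckdk, from -0.25 to 0.69 for Acaa2 and from -0.38 to 0.56 for Hsd17b10. Dbt read -2.88, -2.89 and -2.90 relative to the markers in controls 1 to 3, against -3.90, -4.50 and -3.99 in YY1aKO. Pcca, which overlapped before scaling, read -2.36, -2.40 and -2.33 in controls, against -2.92, -3.11 and -3.06 in YY1aKO. All 10 genes had groups that did not overlap, 9 lower and Bckdhb higher, where 13.7% of all genes tested lay fully lower and 23.1% did not overlap in either direction. The scaled log2 differences were -0.67 for Pcca to -1.39 for Pccb among the lower genes, and 0.92 ± 0.22 for Bckdhb. In the fit across all genes, which had 125 calls on this scale (1.68%, with 1.14% lower and 0.538% higher), Ivd (adjusted p = 0.036) and Pccb (adjusted p = 0.024) passed and the other 7 tested genes did not. This scaling moved the median of all genes by -0.11. It rests on markers of which some were themselves higher and 1 lower in YY1aKO.

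**Figure D5:**
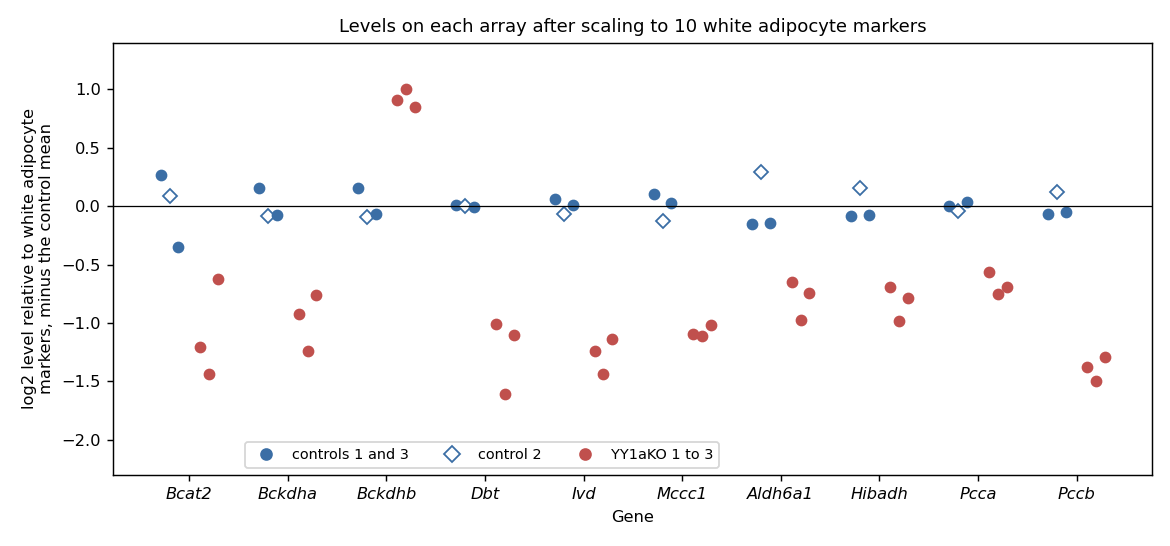
Level of each gene on each array relative to the mean of 10 white adipocyte markers, as a log2 difference from the control mean; points are arrays and open diamonds control 2. The YY1aKO arrays lie below all controls for 9 genes and above them for Bckdhb.

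Markers of other cells also differed between groups for some lists, and their part in these results was not tested. Among brown and beige adipocyte markers, 7 of 8 were measured, and their summed intensity was 563 to 1490 in controls, against 1476 to 2852 in YY1aKO. Members of this list differed in direction. Cidea and Cox7a1 rose, as did Ucp1, the uncoupling protein, which read 23.8 to 25.5 in controls, against 67.6 to 306 in YY1aKO (adjusted p = 0.041 with no filter). Ppargc1a, a coactivator of mitochondrial genes, read 163, 134 and 242 in controls, against 22.3, 15.3 and 35.0 in YY1aKO, and fell by 2.93 ± 0.36 (adjusted p = 0.012 with no filter). Cox8b, Dio2 and Elovl3 did not pass. Of 9 skeletal muscle markers, Acta1 and Tnnc2 passed as higher (summed intensity 376 to 457 in controls, against 1622 to 2350 in YY1aKO), while Ckm, the muscle creatine kinase, read 60.3 to 72.6 on all arrays. Of 5 smooth muscle markers, Myh11 was lower (summed intensity 5820 to 6332 in controls, against 3680 to 5948 in YY1aKO). No tested macrophage (7), endothelial (6), progenitor and fibroblast (7) or mesothelial (4) marker passed with 6 arrays by limma (1 of them, a progenitor and fibroblast marker, was lower at an unadjusted p of 0.05). Without control 2 the counts of lower markers were 1, 3, 2 and 1, where 19.6% of all genes tested were called lower. Fully below controls 1 and 3 lay 2, 5, 5 and 2 of them, where 31.4% of all genes did, and 1 macrophage marker lay fully above. The summed intensities of these 4 lists, all 8, 7, 7 and 4 measured members included, were 7768 to 14915, 1295 to 3651, 24596 to 38846 and 2702 to 4509 in controls, against 12057 to 14275, 2223 to 2713, 27537 to 34169 and 2166 to 3768 in YY1aKO. All 7 measured lymphocyte markers lay below the filter (summed intensity 297 to 632 in controls, against 407 to 674 in YY1aKO).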

How the data were processed

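The deposited table holds 1 intensity per probe set and array on a linear scale (6.09 to 30322), which the authors made with RMA (version not given), as stated per the submitters' processing notes. RMA gives all arrays the same distribution, so it hides a shift common to most genes. How the values were returned to a linear scale is not stated, and their log2 was taken here. Of 22690 probe sets, 64 array controls were left out. The platform annotation names a single gene for 20380 probe sets, several for 691 and none for 1555. All 12 probe sets of the 10 genes have a single symbol.

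A gene stands for its brightest probe set, by mean over the 6 arrays. The brightest 60% of 12393 genes (7436, with a mean log2 of at least 6.83) were tested with limma 3.58.1 in R 4.3.3 (lmFit and eBayes, two-sided, Benjamini-Hochberg over all genes tested, threshold 0.05). For genes below this filter, adjusted p-values come from a fit of all 12393 genes. Errors are standard errors from limma unless called SD. The fit without control 2 used the same genes. Genes named beside the 10, whether or not they passed, are Bcat1, Dld, Bckdk, Ppm1k, Slc25a44, Klf15, Acadsb, Mccc2, Hibch and Mmut, further pathway genes past the threshold with 6 arrays, and the defining gene of a marker list. Auh, Acad8, Echs1 and Slc7a5 were named after their values were seen. So were the markers Retn, Fabp4, Pparg, Lipe, Cidea, Cox7a1, Cox8b, Dio2, Elovl3, Ppargc1a, Acta1, Tnnc2, Ckm and Myh11. The genes and lists were chosen with earlier results of these data known. The scripts were tested on simulated data. Replicate numbers were not used to pair the samples in the main fits (see the closing part on processing). Alternatives were other probe set choices, filters, normalizations, an offset of 16, priors, array weights, an epididymis covariate, a replicate block, thresholds of 0.01 and 0.10, arrays left out and adipocyte scaling.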

Additional observations from a re-analysis of the deposited data

How the results depend on the processing

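Of the 10 genes, each kept its direction in every alternative run with 6 arrays and without control 2. With 6 arrays 4 were lower and 0 higher. The count of lower genes was 1 with no filter, 0 at a threshold of 0.01, 2 with adipocyte scaling, 0 with a replicate block, and 8 with array weights or the epididymis markers as a covariate. The count of higher genes was 1 with array weights, the covariate or a threshold of 0.10. The covariate, the mean log2 intensity of the epididymis markers, was 13.1 in control 2 and 4.69 to 5.97 on the other arrays. It thus mainly sets control 2 apart. Array weights and the covariate both gave the counts of the fit without control 2, and neither is independent support for them. With 1 array left out the counts ran from 0 to 8 lower and from 0 to 1 higher. Of the 12 probe sets 5 were called, with 1 under no filter, 0 at 0.01, 9 at 0.10, 11 with array weights, 11 with the covariate, 3 with adipocyte scaling, 0 with the block and 0 to 11 with 1 array left out. The groups did not overlap for 7 of 9 tested genes, and for 7 to 9 with an array left out. Among the other pathway genes 4 were higher and 2 lower. Lower were 4 among the brightest 40% or after quantile normalization, 8 with array weights, 10 with the covariate, 6 at 0.10, 1 at 0.01 and 0 with the block, and higher were 1 at 0.01, 0 with the block and 0 with adipocyte scaling. Leaving out 1 array gave 0 to 10 lower and 0 to 5 higher. Dld changed sign with the covariate (-0.10), and with 1 array left out it ran from -0.027 (without control 2) to 0.48. With 1 array left out Mmut ran from -0.43 to 0.011 (without control 1).

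Without control 2, 8 of 9 tested genes were lower in every alternative run on the same genes (9 with no filter, Bcat2 included) and with each YY1aKO array left out. Bcat2 lost its call in several runs, among them a threshold of 0.01 and the fits without YY1aKO 1 or YY1aKO 2. With each further array left out its difference ran from -1.62 to -0.88. Where control 1 or control 3 is left out too, the lone control is assumed to vary like the other group. Bckdhb, the 1 higher gene, lost its call with the replicate block, at 0.01 and without control 3 (0 higher), so its count was 0 to 1 with a further array left out. Deviations of same-numbered arrays from their group means correlated at -0.14, -0.12 and -0.12. These values show no pairing by number. They cannot exclude one, because each mean rests on 3 arrays and control 2 stands apart. The cause of these differences was not tested. With the probe set means, without _s_at and _x_at probe sets, with the same median, the offset or the trend, the counts of called genes were as reported.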
